A study of Mus musculus with 8 samples.

Results

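The 8 genes examined here were listed as alpha cell identity genes: Gcg, Irx1, Irx2, Pou3f4, Ttr, Fev, Etv1 and Slc7a2. Whether each is restricted to pancreatic alpha cells was not tested. The 8 genes, of 21887 protein-coding genes on chromosomes 1 to 19, X and Y, were examined for open chromatin in a beta cell line. They were chosen by name, with earlier results of these data known. Accessible regions (peaks) were taken from their RefSeq gene bodies on GRCm38, the build also called mm10, with 25 kb on both sides. Accessibility had been measured by ATAC-seq, an assay whose transposase inserts adapters where nucleosomes leave DNA exposed. The cells were MIN6, a mouse line derived from an insulinoma that serves as a model of beta cells, given as wild type. One group of 4 libraries came from cells that had received the empty vector pcDNA 3, and the other group of 4 from cells that had received the Klf4 expression plasmid pGloMyc-Klf4. Both groups were transfected with Lipofectamine 3000 for 48 hours. The plasmids carry different backbone names, so an effect of Klf4 and one of the backbone cannot be told apart. The files used here hold 1 merged peak list for each plasmid, hence 1 value per group, no spread between replicates and no test between the groups.

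Alpha cells secrete glucagon, which raises blood glucose, and beta cells secrete insulin, which lowers it. Both arise from the same endocrine precursors, and the hormone genes and transcription factors of one type are kept largely silent in the other. Klf4 belongs to the zinc finger factors of the Krüppel-like family, recognises CACCC-type sites and is known as a reprogramming factor, and NKX2.2, which the series title names with it, is a homeodomain factor of islet cells. An accessible promoter or enhancer can be bound by factors, but accessibility alone does not show that a gene is transcribed.

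The empty vector list held 100099 peaks on the main chromosomes and the Klf4 list 128538. Peaks covered 66.0 and 84.2 Mb. All 6 beta cell markers (Ins1, Ins2, Pdx1, Nkx6-1, Mafa and Slc2a2) had a peak in or within 1 kb of the gene in both lists. Markers of other cells were covered too, 2 of 5 acinar and 2 of 4 duct markers with the empty vector against 3 of 5 and 4 of 4 with Klf4, and 3 of 3 mesenchymal markers in both. Peaks were at 2 of 3 leukocyte markers with the empty vector and 3 of 3 with Klf4, at 2 and 1 of 2 liver markers, and at 1 of 2 delta markers and the only gamma marker in both. Cpa1, Prss1 and Sst had none in either. No share over all protein-coding genes stands beside these counts, so they show no enrichment of any cell type. In all, peaks covered 11561 bp (empty vector) and 13716 bp (Klf4) at the beta cell markers, 2702 and 5085 bp at acinar, 5024 and 7831 bp at duct and 4489 and 6360 bp at mesenchymal markers. They covered 1013 and 1572 bp at leukocyte, 1365 and 2063 bp at liver, 863 and 740 bp at delta and 64 and 346 bp at gamma markers. Their part in the results was not tested. The most significant peak of the whole Klf4 list lay in the Klf4 gene itself, with a −log10 q of 17134, where plasmid and genomic DNA cannot be told apart.

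The promoters that carried a peak are shown because the accessible bases are the ones a factor could bind. RefSeq promoter entries on GRCm38.p6 were found for 5 of the 8 genes, with none for Irx1, Ttr and Slc7a2. Each line gives the 250 bases before the annotated start, 5′ to 3′ on the gene's strand. Capitals mark every match to CACCC, the core that Klf factors bind, or to AAGTG, the core that NKX2 factors bind, on either strand, so that GGGTG and CACTT are the reverse matches. The coordinates are chr2:62483654-62483903 (minus strand) for Gcg, chr13:72628570-72628819 (plus) for Irx2, chrX:110814129-110814378 (plus) for Pou3f4, chr1:74885409-74885658 (minus) for Fev and chr12:38779832-38780081 (plus) for Etv1.
Gcg: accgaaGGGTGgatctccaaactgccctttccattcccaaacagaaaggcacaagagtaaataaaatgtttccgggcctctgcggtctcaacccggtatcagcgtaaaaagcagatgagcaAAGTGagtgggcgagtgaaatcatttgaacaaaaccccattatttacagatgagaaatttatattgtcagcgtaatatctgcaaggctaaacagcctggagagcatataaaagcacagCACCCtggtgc
Irx2: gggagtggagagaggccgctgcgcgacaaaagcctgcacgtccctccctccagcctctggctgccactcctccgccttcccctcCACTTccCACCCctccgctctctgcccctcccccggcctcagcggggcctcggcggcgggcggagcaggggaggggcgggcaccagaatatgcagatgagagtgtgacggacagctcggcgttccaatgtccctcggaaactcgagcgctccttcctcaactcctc
Pou3f4: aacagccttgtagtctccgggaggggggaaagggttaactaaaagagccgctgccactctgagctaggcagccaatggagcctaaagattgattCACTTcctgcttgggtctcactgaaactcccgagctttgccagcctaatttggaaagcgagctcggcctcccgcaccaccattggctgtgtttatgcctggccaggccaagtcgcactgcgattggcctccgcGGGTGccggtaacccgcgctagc
Fev: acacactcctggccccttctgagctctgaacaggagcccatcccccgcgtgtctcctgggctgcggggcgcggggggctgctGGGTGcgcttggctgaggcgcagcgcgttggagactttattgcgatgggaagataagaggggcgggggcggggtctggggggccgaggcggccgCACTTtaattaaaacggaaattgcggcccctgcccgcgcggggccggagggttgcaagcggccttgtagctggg
Etv1: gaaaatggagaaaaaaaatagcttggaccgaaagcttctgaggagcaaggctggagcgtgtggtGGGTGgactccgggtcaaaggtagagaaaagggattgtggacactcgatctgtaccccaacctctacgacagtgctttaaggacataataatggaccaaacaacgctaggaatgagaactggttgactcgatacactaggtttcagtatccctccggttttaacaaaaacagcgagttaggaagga

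The CACCC core was in 5 of the 6 promoter windows of these genes, the exception being a second Etv1 start, which no peak covered in either list. Such a match was in 52.0% of all 32851 promoter windows of the same length. AAGTG was in 4 of the 6 windows and in 40.7% of all. The longer Klf sites GGGTGTGG, which contains a CACCC core on the other strand, and GGGCGTGG were in 0 of the 6 and in 3.20% and 4.79% of all. In Gcg the cores began 244 and 11 bases before the start for CACCC and 129 bases before it for AAGTG. In Irx2 the AAGTG match at 166 bases and the CACCC match at 159 bases lay 2 bases apart. The promoters of Fev and Irx2 were GC-rich (68.0% and 68.4%), those of Gcg and Etv1 were not (44.8% and 46.4%), and the median of all promoters was 52.4%. The letters describe the sequence and show no binding.

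Across the 8 windows both lists had 45 peaks. Of the 45 empty vector peaks, 37 were overlapped by at least 1 bp of a Klf4 peak (matched) and 8 were not (lost), a share of 17.8% (95% exact Clopper-Pearson interval 8.0 to 32.1%). Over all empty vector peaks 18.8% were lost, and over those in the windows of all protein-coding genes 17.6%, so the members' share was near the background. Of the 45 Klf4 peaks, 40 were matched and 5 had no empty vector counterpart (gained), a share of 11.1% (interval 3.71 to 24.1%). The background was higher here: 36.7% of all Klf4 peaks and 36.6% of those around protein-coding genes were gained, both above the interval. The gained share depended on the settings. With 50 kb on both sides it was 15 of 64 (23.4%), and with 250 kb, a width chosen after seeing the data, 46 of 183 (25.1%). Without Irx1 it was 3 of 43 (6.98%). With lists of equal length it was 1 of 35 (2.86%, against 30.3% of all Klf4 peaks so limited). In bulk libraries, a change in every cell and a change in some of the cells cannot be told apart. Such intervals describe counting error alone, and peaks that lie close together are not independent. At least 1 lost peak was found at 5 of the 8 genes (49.7% of all protein-coding genes) and at least 1 gained peak at 4 of the 8 (72.3%).

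**Figure D1:**
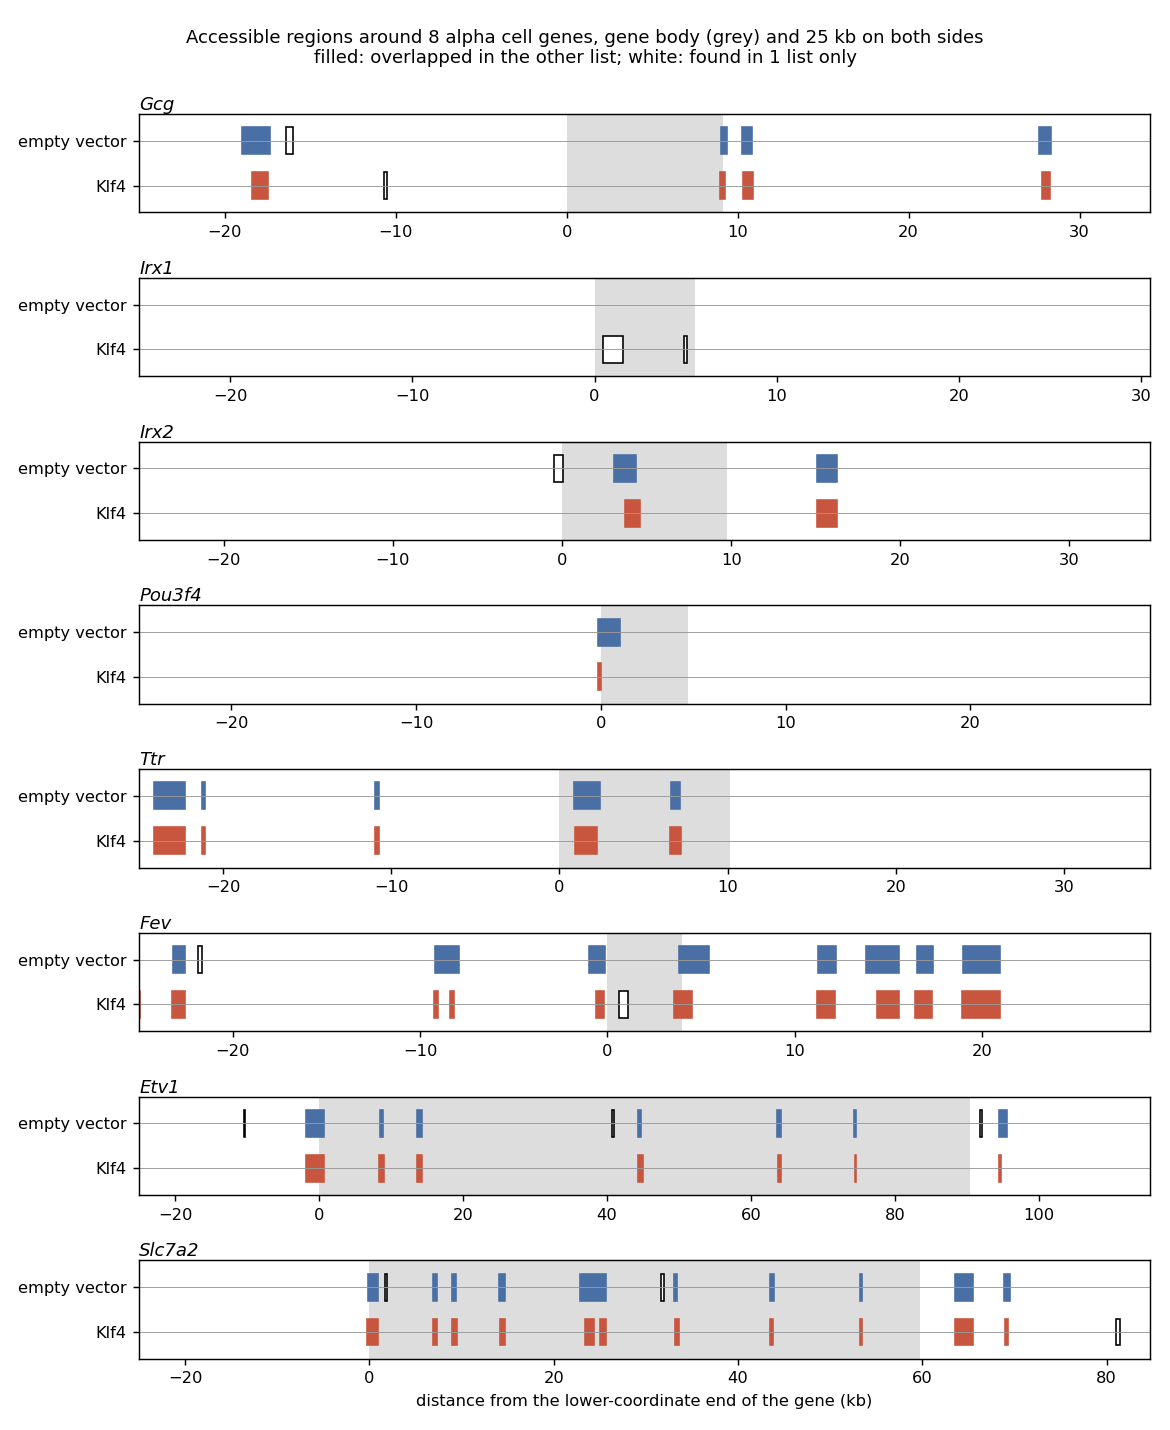
Peaks around each of the 8 genes, by distance in kb from the lower-coordinate end of the gene (grey: gene body), for the empty vector (upper row) and Klf4 (lower row). Filled boxes are matched peaks and white boxes are peaks of 1 list only, 8 with the empty vector and 5 with Klf4. Transcription runs from right to left for Gcg and Fev and from left to right for Irx2, Pou3f4 and Etv1.

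List-specific peaks at these genes were mostly weaker than matched ones. The 8 lost peaks had −log10 q values from 1.18 to 9.45 and a median width of 226 bp, against a median −log10 q of 18.1 and 727 bp for the 37 matched empty vector peaks. The 5 gained peaks ranged from 1.93 to 5.44, with a median of 2.37, against 15.1 for the 40 matched Klf4 peaks. When peaks of −log10 q of at least 5 were set against every peak of the other list, 2 of 34 empty vector peaks were lost (5.88%, against 5.09% of all such peaks) and 1 of 31 Klf4 peaks was gained (3.23%, against 26.8%). When both lists were limited to such peaks, 6 of 34 were lost (17.6%, against 16.3%) and 2 of 31 were gained (6.45%, against 33.6%). Under a −log10 q of 5, 6 of 11 empty vector peaks were lost (54.5%, against 46.2% of all such peaks) and 4 of 14 Klf4 peaks gained (28.6%, against 55.5%), so weak peaks were more often list-specific over the whole lists too. The exception among the lost peaks was 1 in Etv1 above its list's median.

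**Figure D2:**
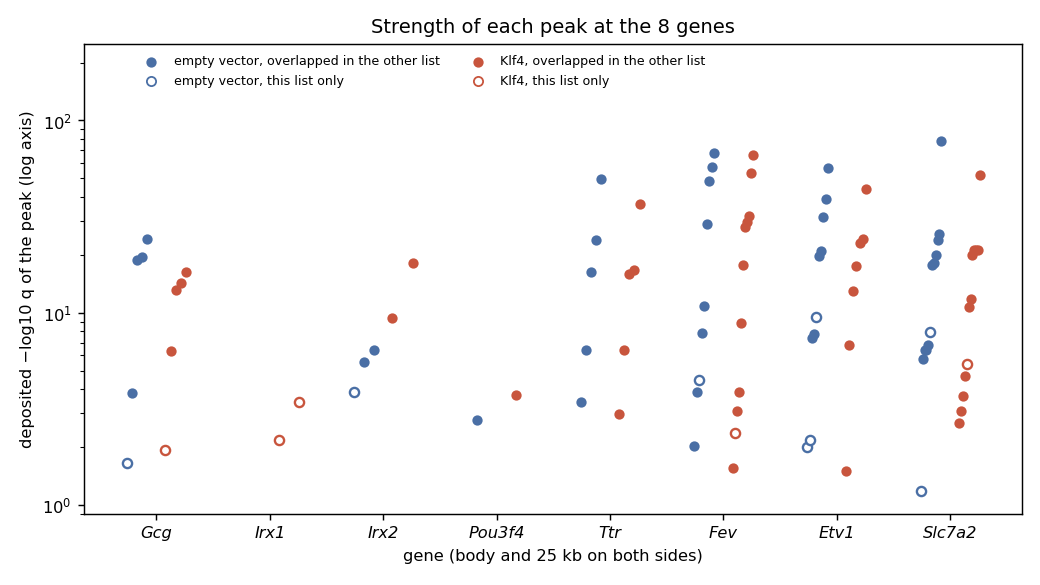
Deposited −log10 q (log axis) of every peak at the 8 genes, blue for the empty vector and red for Klf4. Open circles, the peaks of 1 list only, lie between 1.18 and 9.45, while matched peaks reach 78.6 (empty vector) and 66.4 (Klf4). Values belong to their own list and give no change between lists.

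The next measure was how many bases of each window lay under peaks, given as the log2 ratio of Klf4 to empty vector after 500 bp had been added to both. For all 21887 protein-coding genes the median ratio was 0.21 (quartiles 0.00 and 0.55), and for the 8 members it was −0.30. Of these, 6 were below 0, Irx1 was above it and Ttr differed by 9 bp. A difference of at least 1.5-fold in this ratio was reached upwards by 1 of the 8 (Irx1), against 23.0% of all protein-coding genes, and downwards by 1 of the 8 (Pou3f4), against 1.54%. The other 6 were within 1.5-fold. The members' median depended on the window: it was −0.01 for gene bodies alone, where that of all genes was 0.02, and 0.16 with 250 kb on both sides, a width chosen after seeing the data, where that of all genes was 0.33. Covered length says how many bases passed as peak, not how strong the signal over them was.

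**Figure D3:**
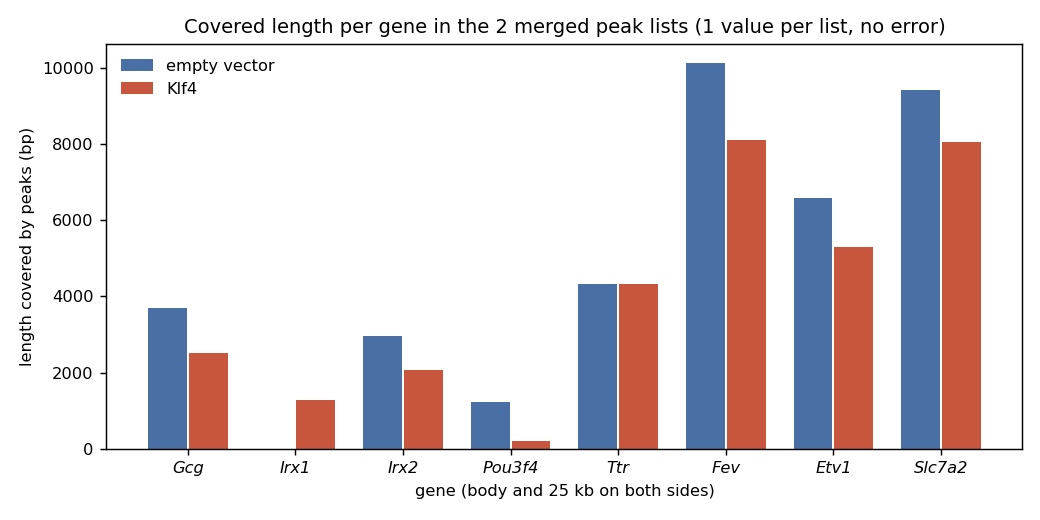
Bases under peaks (bp) within each gene window, which reaches 25 kb past either end of the gene, 1 bar per gene and merged list, with no error since each list gives 1 value. Covered length was lower with Klf4 at Gcg, Irx2, Pou3f4, Fev, Etv1 and Slc7a2, equal to within 9 bp at Ttr, and present at Irx1 with Klf4 alone (1272 bp).

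Gcg encodes proglucagon, the precursor that alpha cells cut into glucagon. Its window on chromosome 2 (gene body 62474530 to 62483653) held 5 peaks in both lists. They covered 3696 and 2522 bp (empty vector and Klf4, log2 ratio −0.47). The glucagon promoter was open in both. The peak over the start was chr2:62483555-62483895 with the empty vector (341 bp, −log10 q 18.8) and chr2:62483529-62483824 with Klf4 (296 bp, −log10 q 14.2). It covered 242 and 171 of the 250 bases printed above. A second pair lay just upstream, at chr2:62484776-62485389 and chr2:62484848-62485404 (−log10 q 24.1 and 16.2). The difference in covered length came mostly from outside the gene: a matched peak in the lncRNA Gm13561 was 1606 and 969 bp wide, and the lost peak (441 bp, −log10 q 1.66) and the gained one (187 bp, −log10 q 1.93) were in Gm13561 too. A further matched pair, 694 and 513 bp, was in the neighbouring gene Fap. With 10 kb on both sides the log2 ratio was −0.10, and with both lists limited to a −log10 q of at least 5 it was 0.40.

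Ttr encodes transthyretin, a carrier of thyroid hormone and of retinol-binding protein that alpha cells express highly. Its window on chromosome 18 (gene body 20664209 to 20674326) was the most alike of the 8 between the lists. Each list had 5 peaks, all matched, over 4314 and 4323 bp (log2 ratio 0.00). Within the gene lay a pair of 1493 and 1353 bp (−log10 q 16.2 and 15.9) and a pair of 565 and 691 bp (6.42 and 6.38). The strongest pair was 1866 and 1849 bp wide, with −log10 q of 49.6 and 36.6, and lay outside it in the lncRNA Gm16090. The values depended on the window. With 50 kb on both sides the empty vector had 6 peaks and Klf4 had 10. Of these 10, 4 were gained, a share near the 36.7% of all Klf4 peaks. The log2 ratio rose to 0.70, where the median of all protein-coding genes was 0.26.

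Irx1 and Irx2 encode Iroquois homeodomain factors and lie in the same cluster on chromosome 13. Irx1 (71958232 to 71963723) had no empty vector peak, as did 13.9% of all protein-coding genes. With Klf4 it had 2 peaks, both gained and both inside the gene, chr13:71958697-71959773 (1077 bp, −log10 q 3.42) and chr13:71963117-71963311 (195 bp, −log10 q 2.18). They were weak, stronger than 21.5% and 9.05% of the Klf4 list, and 338561 bp or more from any empty vector peak. The log2 ratio of 1.83 is set by the added 500 bp (3.78 with 100 bp), and the gene had no peak left in either list at a −log10 q of at least 5 or when the Klf4 list was cut to the length of the other. Of the 3046 protein-coding genes with no empty vector peak in the window, 14.6% had at least 1 with Klf4.

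Irx2 had less covered length with Klf4 near the gene. Its window (gene body 72624430 to 72634196) had 3 empty vector peaks over 2971 bp and 2 Klf4 peaks over 2070 bp (log2 ratio −0.43). With 250 kb on both sides the sign turned, with 7 and 9 peaks over 5675 and 6221 bp (0.12). That was still below the median of all protein-coding genes, 0.33. The promoter peak was 1286 bp wide with the empty vector, chr13:72627529-72628814, and ended 6 bp short of the start. With Klf4 it was 882 bp wide, chr13:72628183-72629064, and covered the start and all 250 bases shown. The −log10 q was 5.55 for the empty vector peak and 18.2 for the Klf4 peak, each a value of its own list. The lost peak, chr13:72623967-72624473 (507 bp, −log10 q 3.86), lay over the lncRNA Gm20554 and the lower-coordinate end of Irx2. On the plus strand this is the 5′ end of the gene body used here. The start used for the promoter above, 72628820, lies inside that body. A pair beyond the gene was nearly equal in width (1178 and 1188 bp). In the 661 kb between Irx1 and Irx2 the lists had 5 and 3 peaks, with 2 lost and 0 gained. The 2 peaks inside Irx1 were the only gained ones from Irx1 through Irx2. The strongest Klf4 peak between the genes had a −log10 q of 58.5.

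Pou3f4 (Brn4) encodes a POU homeodomain factor that can bind the glucagon promoter. Its X-chromosome window (gene body 110814379 to 110819108) held a single peak, over the start in both lists. With the empty vector it ran over chrX:110814196-110815430 (1235 bp, −log10 q 2.76) and with Klf4 over chrX:110814201-110814407 (207 bp, −log10 q 3.74). The log2 ratio of −1.30 was the lowest of the 8, and 0.0868% of all protein-coding genes had a lower one. The part that was not called with Klf4 lay inside the gene, since 183 and 178 of the 250 bases before the start were covered. Neither peak passed a −log10 q of 5. The ratio was −2.12 with 100 bp added, −1.79 with peaks of at least 300 bp, where the Klf4 list kept none and the added 500 bp set the value, and −0.76 with 50 kb on both sides.

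Fev (Pet1) and Etv1 (Er81) encode ETS-family factors, Fev also being known from serotonergic neurons and endocrine precursors. Fev on chromosome 1 (74881501 to 74885473) had 9 empty vector peaks over 10114 bp and 11 Klf4 peaks over 8097 bp (log2 ratio −0.30). The promoter peak was 1622 bp wide with the empty vector (chr1:74885310-74886931, −log10 q 7.83) and 949 bp with Klf4 (chr1:74885070-74886018, −log10 q 17.8). Both covered all 250 bases shown, and the Klf4 peak reached further into the gene and less far upstream. Within the gene a 495 bp peak was gained (chr1:74882131-74882625, −log10 q 2.37), and the gene body alone had a log2 ratio of 1.08. The ratio was −0.02 with 50 kb on both sides and 0.24 with 250 kb. The medians of all protein-coding genes were 0.26 and 0.33 there. One empty vector peak of 1236 bp matched 2 Klf4 peaks of 213 and 181 bp, and one of 191 bp was lost (−log10 q 4.49). One of the 11 Klf4 peaks reached in at the edge, and its counterpart lay just outside. The strongest pair of the window was not at Fev but in Cryba2, with −log10 q of 67.9 and 66.4. The peak over Mir375, the gene of an islet microRNA, was nearly the same in both lists, 1986 and 1990 bp wide.

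Etv1 on chromosome 12 (38780082 to 38870483) had 10 empty vector peaks over 6581 bp and 7 Klf4 peaks over 5295 bp (log2 ratio −0.29). All 7 Klf4 peaks were matched, and 3 of the 10 empty vector peaks were lost. Over the whole lists 18.8% of empty vector peaks were lost and 36.7% of Klf4 peaks were gained. The promoter peak was wide and alike in both, chr12:38778334-38780759 (2426 bp, −log10 q 56.5) and chr12:38778334-38780776 (2443 bp, −log10 q 44.2). The strongest of the lost peaks at all 8 genes was inside Etv1, chr12:38820717-38820971 (255 bp, −log10 q 9.45), 3428 bp from the nearest Klf4 peak. The other lost peaks, of 168 and 181 bp, were outside the gene. A matched peak beyond the gene went from 1143 to 215 bp, while over the gene body alone the net covered length was nearly equal (log2 ratio −0.00), since wider and narrower pairs and the lost peak there offset each other. The lower number held further out. With 250 kb on both sides, a width chosen after seeing the data, the empty vector had 25 peaks and Klf4 had 14. Of these, 11 were lost (18.8% over the whole list) and 0 were gained (36.7% over the whole list). They covered 13581 and 9360 bp, with a log2 ratio of −0.51, against a median of 0.33 over all protein-coding genes.

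Slc7a2 encodes a cationic amino acid transporter that takes up arginine, a stimulus of glucagon secretion. Its window on chromosome 8 (gene body 40862341 to 40922070) had 12 peaks in both lists, over 9411 and 8051 bp (log2 ratio −0.21). In wider windows the sign turned, with ratios of 0.02 at 50 kb and 0.20 at 250 kb. Both stayed below the medians of all protein-coding genes there, 0.26 and 0.33. The strongest member peak of the empty vector list was over the lower-coordinate end of this gene, chr8:40862140-40863226 (1087 bp, −log10 q 78.6). The matching Klf4 peak was chr8:40862070-40863252 (1183 bp, −log10 q 52.0). Inside the gene, 1 empty vector peak of 2811 bp matched 2 Klf4 peaks of 975 and 621 bp, and peaks of 197 and 360 bp were lost (−log10 q 1.18 and 7.90). The gained peak (359 bp, −log10 q 5.44) was in the neighbouring gene Pdgfrl.

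Peaks that matched 1 to 1 differed in width in both directions. Of 35 such pairs at the 8 genes, 19 were narrower with Klf4 (54.3%, interval 36.6 to 71.2%), with a median signed difference of −17.0 bp. Of all 79834 such pairs 52.5% were narrower, with a median of −6.50 bp. Single pairs differed far more, and the largest increase was 212 bp, inside Etv1. The largest decrease was −1028 bp at the start of Pou3f4, followed by −928 bp beyond Etv1, −673 bp at the start of Fev, −637 bp in Gm13561 near Gcg and −603 bp in Cryba2 near Fev.

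Another 4 gene lists were measured the same way, as descriptions with no test. Over all protein-coding genes 23.0% were higher and 1.54% lower past 1.5-fold, and 36.7% of all Klf4 peaks were gained. Of 14 other genes of alpha cells, 3 were higher, a share near that of all genes, among them Peg10 (0 and 1433 bp, log2 ratio 1.95, set by the added 500 bp as at Irx1) and Loxl4 (0.88), and 0 were lower, with a median of −0.04. Gained peaks were 33 of 132 (25%) at these genes, 24 of 111 (21.6%) at islet endocrine genes and 23 of 106 (21.7%) at beta cell genes, so a gained share under that of the whole list was seen in these lists too. Of 12 genes shared by islet endocrine cells, among them Pax6, Isl1 and Nkx2-2, none passed 1.5-fold, and the median was 0.00. Of 12 beta cell genes, Nkx6-1 was higher (0.87) and Ucn3, a peptide of mature beta cells, was lower (−0.60), with a median of 0.16.

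The paralogs of the members had the highest median. Of 11 paralogs, 8 were higher past 1.5-fold and 0 lower, against 23.0% and 1.54% of all protein-coding genes. The median was 0.85, against 0.21 for all genes, and 44 of their 79 Klf4 peaks were gained (55.7%, against 36.7% of the whole list). Irx3, on chromosome 8, had 1 empty vector peak of 914 bp and 7 Klf4 peaks over 3907 bp (log2 ratio 1.64). Irx6 had 0 and 4 peaks over 0 and 2283 bp, so that its ratio of 2.48 is set by the added 500 bp, Irx5 had a ratio of 0.81 and Irx4 of 0.87. The Irx genes lie in 2 clusters, so their windows are not independent. Pou3f1, Pou3f2 and Pou3f3, which Pou3f4 resembles, had ratios of 0.98, 0.85 and 1.19. Slc7a3 had a ratio of 0.76 from 1 peak per list (225 and 732 bp), so the added 500 bp weigh heavily in it. Etv4, Etv5 and Slc7a1 were within 1.5-fold (0.32, 0.45 and 0.46). 

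**Figure D4:**
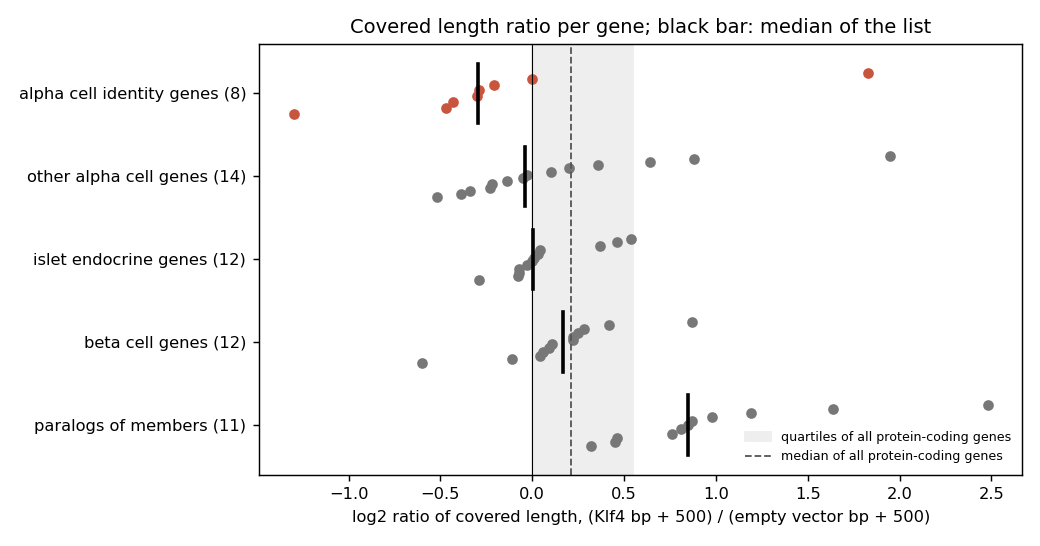
log2 ratio of covered length, Klf4 over empty vector with 500 bp added to both, for each gene of 5 lists (points) with the list's median (black bar). The grey band and dashed line are the quartiles (0.00 and 0.55) and the median (0.21) of all protein-coding genes. The median is −0.30 for the 8 alpha cell identity genes and 0.85 for the 11 paralogs.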

How the data were processed

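The labels list 8 libraries, 4 per plasmid, and groups were taken from their titles. The 2 merged broadPeak files, 1 per plasmid, gave all values used. The series' design text says that MACS2 called the peaks. Bowtie2, FastQC, DiffBind and the build mm10 are named in the submitters' processing notes, without version. Per the labels, an mRNA-seq library kit from Tecan was named beside the ATAC kit from Active Motif, and its role is not given in the sources used here. Whether reads or peaks were merged, and how reads were filtered and shifted, is not given in the sources used here. Per the file format, the authors deposited for each peak a fold enrichment (a ratio to local background), its p-value and q-value as −log10, and a display score of 10 times the −log10 q. These values describe peaks within a list. Where they stand side by side for a matched pair, or share a minimum, no change between lists is read from them. Read depth is unknown, and a deeper library lets more weak peaks through.

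Peaks on scaffolds were left out (165 and 188). A peak belonged to a gene when it touched the RefSeq GRCm38.p6 gene body or 25 kb on either side, and covered length was counted inside that window. Intervals are 95% exact binomial. All 8 members are named, and genes of the other lists where they passed 1.5-fold (1 such gene is not reported here) or help describe a list, the latter chosen after their values were seen (Pax6, Isl1, Nkx2-2, Etv4, Etv5, Slc7a1). The members and lists were chosen with earlier results of these data known. The steps returned the planted values in 300 of 300 windows on simulated data. The code ran on Python 3.11.15 with scipy 1.17.1 for intervals, pandas 2.3.3 and numpy 2.4.6 for tables and matplotlib 3.10.9 for plots.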

Additional observations from a re-analysis of the deposited data

How the results depend on the processing

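No paired analysis was possible because each group has 1 merged list, and leaving out replicates was not run for the same reason. Shares outside their 95% interval, and log2 ratios at least 0.1 away from the value reported, count as moved. Windows of 250 kb and the removal of peaks in other genes were chosen after seeing the data. Of 55 recomputed values for the 8 genes as a group, 47 stayed within these limits and 8 moved. With peaks of −log10 q of at least 5 set against the whole other list, the lost share was 5.88% and the gained share 3.23%. The lost share was 28.9% both with lists of equal length and with 50% of a peak required to be covered (30.2% and 24.9% of all peaks). The gained share was 2.86% with lists of equal length, 6.45% with both lists limited to −log10 q of at least 5, 23.4% with windows of 50 kb and 25.1% with windows of 250 kb. The interval around it is wide, and 23.4% lies within it. It was below that of all Klf4 peaks under all 11 settings other than leaving out genes. The median log2 ratio was −0.11 with windows of 50 kb, −0.01 for gene bodies alone, −0.11 with both lists limited to −log10 q of at least 5 and 0.16 with windows of 250 kb. It was below the median of all protein-coding genes under all 9 such settings, although the gene body median of those was 0.02. With peaks in other genes left out, only the members were filtered. The members' shares and median then stood against unfiltered peaks and genes. Leaving out 1 gene at a time gave lost shares from 14.3 to 20%, gained shares from 6.98 (without Irx1) to 13.2% and medians from −0.30 to −0.29. For single genes 37 of 72 log2 ratios kept their value and 35 moved. The sign turned for Fev (1.08 in the gene body alone, 0.24 with 250 kb), Gcg (0.40 at a −log10 q of at least 5, 0.06 in the gene body), Irx2 (0.12 with 250 kb) and Slc7a2 (0.02 with 50 kb, 0.20 with 250 kb), and Ttr lay between −0.07 and 0.70. Irx1 and Pou3f4 had ratios of 0.00 at a −log10 q of at least 5, where neither list kept a peak. Read depth is unknown, so its effect was not tested.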
